A study of Mus musculus with 48 samples.

Results

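The genes described here are 9 genes of the PPARα and fasting response, Ppara, Cpt1a, Pdk4, Angptl4, Acot1, Acot3, Fgf21, Vnn1 and Plin2, among the 18194 genes that could be read by a single gene symbol of the array. They were taken by symbol alone, with every probe set that the platform gives to that symbol and to no other, which made 15 probe sets of 45101. Liver RNA of 6-week-old male C57BL/6J mice was collected every hour for 48 h, the first pool at CT18 and the last at CT65; CT0 marks subjective dawn, and subjective dusk is CT12. The mice had been entrained to 12 h of light and 12 h of dark for 1 week and were then held in constant darkness, and no group was fasted or treated. The livers of 3 to 5 mice made up each of the 48 pools, and each pool was read on 1 Affymetrix mouse expression array. The pools up to CT41 formed the first cycle, and those from CT42 on formed the second. No hour had a replicate pool, so every error given below comes from the spread of the pools about a fitted curve, and it may in part be technical. As liver is a mixture of cells, fewer cells of a type and less RNA per cell cannot be told apart.

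PPARα, encoded by Ppara, is a nuclear receptor that binds fatty acids and their derivatives and, as a dimer with a retinoid X receptor, activates genes of fatty acid uptake, oxidation and ketone body production in the liver. Fasting releases fatty acids from adipose tissue and raises the activity of the receptor. The other 8 genes are all known targets of this response: Cpt1a gates the entry of long-chain fatty acids into mitochondria, Pdk4 shuts off the use of pyruvate, Acot1 and Acot3 cleave acyl-CoA, Vnn1 releases cysteamine from pantetheine, Plin2 coats lipid droplets, and Angptl4 and Fgf21 are secreted, the former an inhibitor of lipoprotein lipase and the latter a hormone of the fasted state.

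The median intensity of an array lay between 95.2 and 110.9, and the mean of 49.5% of all probe sets stayed below 100, a level taken here as near the background. The hepatocyte genes Alb and Ttr were read at 697353 or more in every pool. For reference, the clock genes had 24 h peaks at CT22.3 for Arntl (Bmal1), CT6.63 for Nr1d1 and CT10.2 for Dbp. Of 34 measured markers of hepatocytes and 5 other cell types, 18 had a 24 h component (52.9%, against 52.7% of all genes): 2 of 5 for hepatocytes, 2 of 4 for adipocytes, 0 of 6 for skeletal muscle, 4 of 7 for Kupffer cells, 5 of 6 for sinusoidal endothelium and 5 of 6 for stellate cells. Their part in the rhythms below was not tested. The 6 skeletal muscle markers summed to between 605.7 and 741.4 in 47 pools and to 41789.5 in the pool of CT28. Ckm, Acta1, Mb, Mylpf and Tnnt3 were highest in that pool, and Myh4 was not (highest at CT61, 156.6). Of the 4 adipocyte genes only Adipoq was highest at CT28, at 207.0 against a median of 55.8. Fabp4 had its high of the first cycle there (8793.4) but was highest at CT61 (9469.1), and the dim Lep and Retn were highest at CT65. In median correlation with the other arrays, CT60 to CT65 lay at 0.984 to 0.990 and the other 42 pools at 0.989 to 0.995, with CT27, CT25 and CT31 as low as most of the late pools. Results that rest on CT28 or on CT60 to CT65 are therefore given with and without them.

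RefSeq promoter sequences, running from 250 bases before to 50 bases after the start of the transcript on GRCm38.p6, were on hand for 7 of the 9 genes, and 5 are printed because the results turn on these genes. Ppara (chr15:85735526-85735825, + strand) and Cpt1a (chr19:3323051-3323350, + strand) had fitted 24 h peaks that did not differ by the test. Acot1 (chr12:84009252-84009551, + strand) and Acot3 (chr12:84051894-84052193, + strand) lie in 1 gene cluster on chromosome 12, are transcribed in the same direction, and peaked apart. Plin2 (chr4:86670010-86670309, - strand) had the earliest fitted 24 h peak of the subjective day. Capitals mark 2 motifs, the nuclear receptor hexamer AGGTCA and the E-box CACGTG, searched on both strands, so that TGACCT is the hexamer read from the other strand.
Ppara: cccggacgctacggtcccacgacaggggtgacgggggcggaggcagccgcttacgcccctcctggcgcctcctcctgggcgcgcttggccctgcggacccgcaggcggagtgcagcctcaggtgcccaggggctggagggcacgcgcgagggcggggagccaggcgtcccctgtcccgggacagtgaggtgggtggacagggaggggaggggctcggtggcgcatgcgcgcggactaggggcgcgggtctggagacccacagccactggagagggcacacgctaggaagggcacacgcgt
Cpt1a: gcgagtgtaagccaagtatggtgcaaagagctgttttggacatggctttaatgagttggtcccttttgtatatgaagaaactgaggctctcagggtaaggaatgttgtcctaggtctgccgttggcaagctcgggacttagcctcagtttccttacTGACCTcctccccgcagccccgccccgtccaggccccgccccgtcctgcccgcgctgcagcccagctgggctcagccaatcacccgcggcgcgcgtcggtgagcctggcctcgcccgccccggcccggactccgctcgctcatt
Acot1: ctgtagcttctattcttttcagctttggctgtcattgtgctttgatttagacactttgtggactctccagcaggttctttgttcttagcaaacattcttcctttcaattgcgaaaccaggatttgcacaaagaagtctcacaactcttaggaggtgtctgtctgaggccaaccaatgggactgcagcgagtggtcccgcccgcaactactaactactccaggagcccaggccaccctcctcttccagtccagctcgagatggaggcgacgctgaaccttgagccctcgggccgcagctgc
Acot3: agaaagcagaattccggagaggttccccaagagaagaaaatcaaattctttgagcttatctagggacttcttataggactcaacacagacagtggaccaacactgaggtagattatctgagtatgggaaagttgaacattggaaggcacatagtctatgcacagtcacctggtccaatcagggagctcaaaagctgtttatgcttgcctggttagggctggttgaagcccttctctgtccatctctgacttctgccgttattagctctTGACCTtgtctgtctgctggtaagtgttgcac
Plin2: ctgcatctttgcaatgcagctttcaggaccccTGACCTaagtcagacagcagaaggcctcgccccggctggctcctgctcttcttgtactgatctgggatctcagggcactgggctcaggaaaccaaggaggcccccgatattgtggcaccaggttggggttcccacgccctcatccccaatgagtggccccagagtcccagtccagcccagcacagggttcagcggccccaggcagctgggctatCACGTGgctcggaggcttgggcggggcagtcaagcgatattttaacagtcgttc
The hexamer AGGTCA was found in the promoters of Cpt1a, Acot3 and Plin2, which is 3 of the 7 genes, and in 16.3% of all 32851 mouse promoters of this length. The E-box CACGTG was found in those of Plin2, where it spans the start of the transcript from position -4 to 2, and Fgf21, against 7.15% of all promoters. A direct repeat of AGGNCA with 1 base between, a loose form of the element to which PPARα dimers bind (0.381% of all promoters), and the D-box letters TTATGTAA (0.938%) and TTACGTAA (0.119%) were in none of these windows. A match describes the letters of the window and not a binding site.

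A 24 h component was called in 14 of the 15 probe sets and in 8 of the 9 genes, all but Fgf21 (limma, F-test of the 24 h cosine and sine pair, Benjamini-Hochberg adjusted p under 0.05 over all probe sets). Among all probe sets 47.4% were called, and 52.7% of genes by their brightest probe set. Unless a limit is named, such shares include dim probe sets and were not matched for intensity. With the stricter pair of tests that the study used, Fisher's G-test and a cosine fit after COSOPT with q-values under 0.05, 12 of the 15 probe sets had a period of 20 to 30 h, against 9.98% of all probe sets; both probe sets of Angptl4 and that of Fgf21 were not among them. The 8 genes did not share a peak. Along the circadian day the fitted 24 h peaks, each from the brightest probe set with its standard error, came at CT2.82 ± 0.37 for Plin2, CT9.31 ± 0.36 for Ppara, CT9.45 ± 0.44 for Cpt1a, CT11.0 ± 0.53 for Angptl4, CT12.0 ± 0.50 for Vnn1, CT13.9 ± 0.34 for Acot3, CT18.8 ± 0.58 for Acot1 and CT23.0 ± 0.29 for Pdk4. Without CT60 to CT65 the Ppara peak moved to CT10.0 and that of Cpt1a to CT10.6. Distances from Ppara moved with it. Angptl4 then followed Ppara by 1.20 h, Acot3 by 4.14 h and Acot1 by 8.40 h. Plin2 preceded it by 7.30 h and Pdk4 by 11.1 h.

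**Figure D1:**
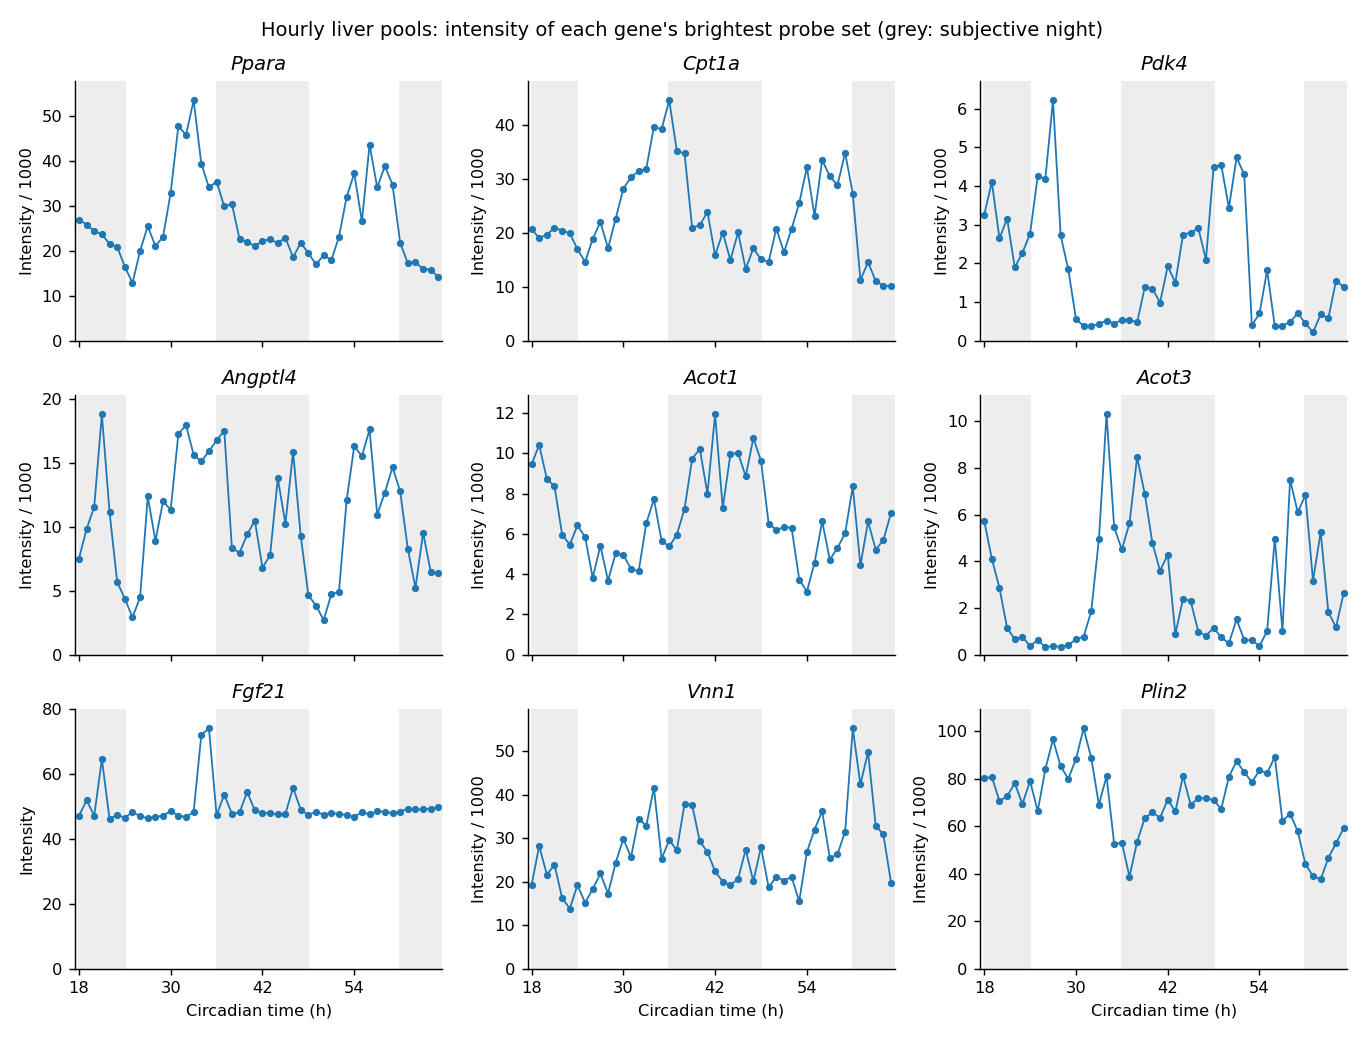
Intensity (linear scale, y axis from 0) of the brightest probe set of each of the 9 genes in the 48 hourly pools against circadian time in hours, each point 1 pool, with subjective night in grey. Ppara and Cpt1a both rise in the subjective day, with Cpt1a highest at CT36 and Ppara at CT33. Pdk4 is high from late night to early day and falls from 4301.9 at CT52 to 396.8 at CT53. Fgf21 stays at 46.2 to 74.1, near the background.

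Of the receptor itself, the brightest probe set of Ppara (1449051_at) read 12817.5 at the lowest (CT25), 22744.5 at the median and 53446.2 at the highest (CT33). In the 12 pools of hours CT6 to CT11 it lay between 26514.8 and 53446.2 with a median of 38019, and in the 12 pools of CT18 to CT23 between 18537.1 and 26921.5 with a median of 22367.1. These 2 blocks of 6 h overlapped in 1 narrow stretch only, since the afternoon low of 26514.8 (CT55) lay just under the night high of 26921.5 (CT18). The 24 h amplitude was 0.51 ± 0.05 on the log2 scale, measured from the mean to the peak and equal to a 2.03-fold swing (adjusted p = 2.47e-10). The other 2 Ppara probe sets, 1439675_at and 1457721_at, had 24 h amplitudes of 0.68 and 0.57, and their profiles correlated with the first at r = 0.93 and r = 0.96 over the same 48 pools after a linear trend was removed. All 3 were lowest at CT25 and highest at CT33. The peak of 1439675_at was 0.50 h later than that of 1449051_at (95% interval 0.04 to 0.96 h, adjusted p = 0.0346), but 0.08 h later without CT60 to CT65 (adjusted p = 0.727) and 0.16 h earlier (-0.16) in the first cycle alone. The peak of 1457721_at did not differ from it by the test (0.18 h, interval -0.22 to 0.58 h).

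Cpt1a, whose product forms the acylcarnitines that enter mitochondria, followed Ppara most closely. Its brightest probe set (1460409_at) read between 10139.0 (CT65) and 44622.4 (CT36) with a median of 20778.8. The 12 pools of CT6 to CT11 lay between 23163.9 and 39704.8 and all stood above the 12 pools of CT18 to CT23, at 13307.7 to 20950.8. Its 24 h amplitude was 0.58 ± 0.07, a 2.22-fold swing (adjusted p = 4.64e-08). Its fitted peak followed that of Ppara by 0.14 h (interval -0.50 to 0.78 h, adjusted p = 0.676), so over all pools the order of these 2 genes could not be told. By single cycles the delay was 0.79 h in the first (interval 0.0048 to 1.57 h) and -0.42 h in the second (-1.25 to 0.41 h). The measured highs of the 2 cycles came at CT36 and CT59, against CT33 and CT56 for Ppara. The 2 other Cpt1a probe sets, both of the _x_at kind whose oligonucleotides may also match other transcripts, peaked at CT9.14 and CT9.24 with amplitudes of 0.53 and 0.57. Without CT60 to CT65 the brightest probe set peaked 0.59 h after Ppara (adjusted p = 0.0744).

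Pdk4, a kinase that inactivates pyruvate dehydrogenase, ran nearly opposite to Ppara. Its intensity was 217.3 at the lowest (CT61), 1522.2 at the median and 6214.4 at the highest (CT27), a 28.6-fold range. It lay between 372.5 and 1819.4 with a median of 462.9 in the pools of CT6 to CT11, and the median rose to 629.3 in CT12 to CT17, 2692.9 in CT18 to CT23 and 4220.3 in CT0 to CT5. The CT0 to CT5 block also held 1 of the low pools, since Pdk4 fell from 4301.9 at CT52 to 396.8 at CT53, while in the first cycle it passed through 2719.5 at CT28 and 1840.3 at CT29 before it reached 567.2 at CT30. Its 24 h amplitude was 1.59 ± 0.13, a 9.02-fold swing (adjusted p = 4.69e-12), and its peak lay 10.3 ± 0.44 h before that of Ppara. Skeletal muscle also expresses Pdk4, and the pool with muscle transcripts, CT28, held an intermediate value of 2719.5. Without that pool the amplitude was 1.59 and the peak CT23.0.

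The secreted inhibitor of lipoprotein lipase, Angptl4, read high in the subjective day and again in single pools of the night. Its brighter probe set (1417130_s_at) was lowest at CT50 (2716.6), had a median of 10383.5 and was highest at CT21 (18811.9). In the first cycle it fell from 18811.9 at CT21 to 2922.7 at CT25, stood at 15133.5 to 17958.3 from CT31 to CT37, and fell again to 8356.1 at CT38. In the second cycle it reached 15889.0 at CT46, 2716.6 at CT50 and 17623.9 at CT56. It thus had a high in the subjective day and a shorter one late in the subjective night of each cycle. Each night high stood on 1 pool, CT21 between 11588.7 and 11172.3, and CT46 between 10263.8 and 9303.5. The array of CT46 had a median correlation of 0.990 with the others, near that of CT60. With 1 array an hour a second daily high is therefore not established. The 24 h amplitude was 0.57 ± 0.09 (adjusted p = 6.90e-06), and the 24 h peak came 1.66 h after that of Ppara (interval 0.55 to 2.76 h, adjusted p = 0.0038). This delay rests on the scale and the cycles, since it was 1.03 h with linear intensities (adjusted p = 0.0909) and 0.88 h in the first cycle alone (adjusted p = 0.226). A dim second probe set of Angptl4 (1453410_at) read only 74.0 to 94.2, near the background, and its called 24 h component had an amplitude of 0.04. It peaked 5.40 h later than the bright one and correlated with it at r = -0.07, and without CT60 to CT65 it was no longer called (adjusted p = 0.161).

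Acot1 and Acot3 encode a cytosolic and a peroxisomal acyl-CoA thioesterase and lie in a cluster on chromosome 12, at 84009502 to 84017670 and 84052144 to 84060400 on GRCm38.p6, with Acot4 between them at 84037254 to 84044723. Acot1 (1449065_at) was between 3137.5 (CT54) and 11930.9 (CT42), with medians of 9149.9 in CT18 to CT23 and 5127.7 in CT6 to CT11. Acot3 (1422925_s_at) had the widest range of the 9 genes, from 334.2 (CT26) to 10296.8 (CT34), or 30.8-fold, with medians of 552.3 in CT0 to CT5 and 4641.9 in CT12 to CT17. In the first cycle Acot3 stayed at or under 767.3 in every pool from CT22 to CT31, and then rose through 1861.6 at CT32 and 4939.3 at CT33 to its high at CT34. The amplitudes were 0.47 ± 0.07 for Acot1 and 1.79 ± 0.17 for Acot3 (adjusted p = 1.77e-06 and 6.62e-11), a 1.92-fold and a 12.0-fold swing. Acot3 peaked 4.57 ± 0.47 h after Ppara and Acot1 another 4.89 h later (interval 3.73 to 6.06 h). Their profiles correlated at r = 0.50 over the 48 pools that they share. The suffix of the Acot3 probe set marks oligonucleotides that may match related transcripts, and how much signal the family shares was not tested.

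Vnn1, a pantetheinase, was lowest at CT23 (13850.3) and highest at CT60 (55318.6), with a median of 25560.4 for 1418486_at. Its 12 pools of CT6 to CT11 (25295.4 to 41631.5) lay above all but 2 of the pools of CT18 to CT23 (13850.3 to 28249.4), those of CT19 and CT46. The amplitude was 0.45 ± 0.06 (adjusted p = 2.16e-06), and the peak came 2.70 h after that of Ppara (interval 1.48 to 3.92 h). The other Vnn1 probe set, 1447845_s_at, peaked 0.62 h earlier than the first (interval -1.04 to -0.21 h) and 2.07 h after Ppara. Without CT60 to CT65, the pools that held the high values of the second cycle, the peaks of these probe sets followed Ppara by 2.04 h (adjusted p = 0.00255) and 1.31 h (adjusted p = 0.0505).

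Plin2, the lipid droplet coat protein, had the smallest swing of the 8 genes, 1.55-fold, but with a small standard error. It read 37616.1 at the lowest (CT62), 70988.6 at the median and 101139 at the highest (CT31). All 12 pools of CT12 to CT17, at 37616.1 to 65752.5, lay under all 12 pools of CT0 to CT5, at 66269.9 to 96489.1, and under all of CT18 to CT23, at 66180.3 to 81118.2. The 24 h amplitude was 0.32 ± 0.03 (adjusted p = 1.69e-10), and the fitted 24 h peak preceded that of Ppara by 6.50 ± 0.52 h. The measured highs lay later than this fitted peak, at CT31 in the first cycle and at CT56 (89200) in the second. Ppara was highest at CT33 and CT56. The Plin2 median was 80356.3 in CT0 to CT5 and 81613.5 in CT6 to CT11. Plin2 went from 101139 at CT31 to 38761.7 at CT37, while Acot3 went from 767.0 to 5629.4. By CT42 Plin2 was back at 71135.2, with Acot3 at 4282.3. The r of these 2 genes was -0.49 over the 48 pools.

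Fgf21, the fasting hormone, was read through a single probe set (1422916_at) that stayed near the background, with a median of 48.1. It was above 60 in 3 pools only, at 64.6 in CT21, 72.1 in CT34 and 74.1 in CT35, and lay between 46.2 and 55.8 in the other 45. No 24 h component was called (amplitude 0.07 ± 0.03, adjusted p = 0.159), nor a 12 h component (adjusted p = 0.615). A p that misses the threshold does not show that Fgf21 was constant, and its peak is given no place in the order.

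Against Ppara itself, 9 of the 13 other probe sets with a 24 h component had a different peak time, where 92.4% of all probe sets with such a component did (normal test of the difference, with the covariance of the arrays, adjusted over 21374 probe sets). The 4 that did not differ were the 3 Cpt1a probe sets and 1 of Ppara. Taken in order, neighbouring genes were apart by more than their 95% interval from Pdk4 to Plin2 (3.78 h, interval 2.91 to 4.66 h), Plin2 to Ppara (6.50 h, 5.48 to 7.51 h), Cpt1a to Angptl4 (1.51 h, 0.28 to 2.74 h), Vnn1 to Acot3 (1.87 h, 0.83 to 2.91 h), Acot3 to Acot1 and Acot1 to Pdk4 (4.26 h, 3.07 to 5.45 h). The gap of Cpt1a and Angptl4 was 0.60 h without CT60 to CT65 (interval -0.61 to 1.82 h) and 0.09 h in the first cycle alone (interval -1.23 to 1.41 h), settings chosen after seeing the data, so the order of these 2 genes did not hold in every setting. Ppara and Cpt1a could not be ordered over all pools, nor could Angptl4 and Vnn1 (1.04 h, -0.38 to 2.46 h). Without CT60 to CT65, 6 of the 12 probe sets then tested differed from Ppara. In the first cycle alone 5 did. The shares of all probe sets that differed in these smaller fits are not given here.

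**Figure D2:**
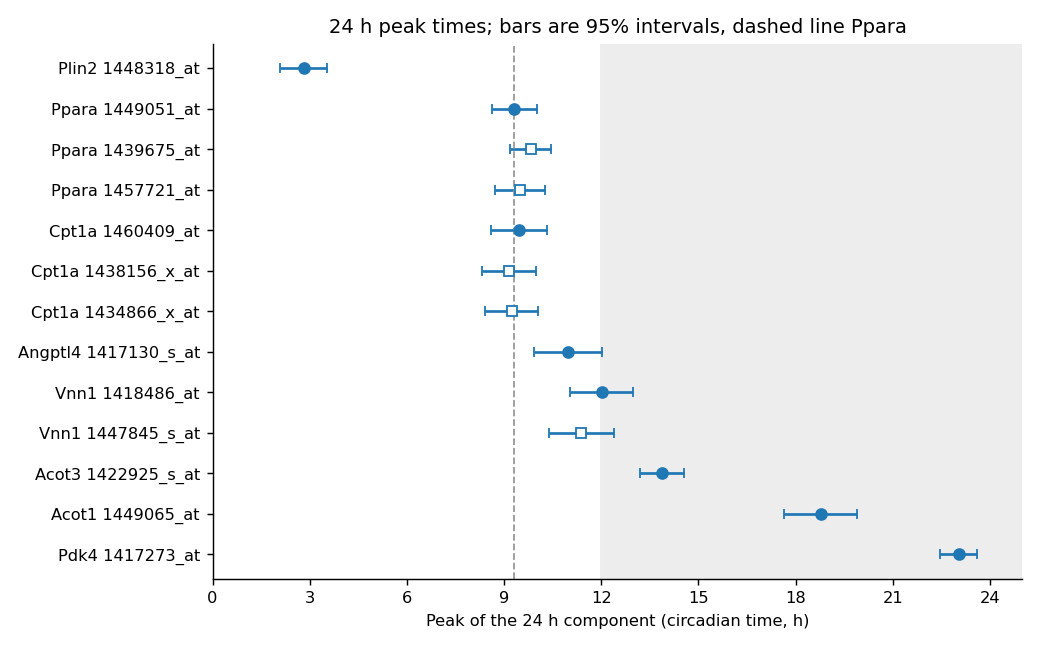
Fitted peak of the 24 h component (x axis, circadian time in hours; points, with 95% intervals as bars) for the 13 called probe sets with a mean intensity of at least 100, filled for the brightest of a gene and open for the others, with subjective night in grey. The dashed line is the Ppara peak at CT9.31; the Cpt1a intervals include it, Plin2 lies at CT2.82, and Acot3, Acot1 and Pdk4 follow in the subjective night.

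The second question was how large the 12 h component of these genes was beside the 24 h component. A 12 h component can also sharpen 1 daily wave, so a call alone does not show 2 highs a day. A 12 h component was called in 7 of the 15 probe sets, against 4.89% of all probe sets: the 3 of Ppara, 2 of the 3 of Cpt1a, the bright one of Angptl4 and that of Plin2. For the brightest probe set of Ppara the 12 h amplitude was 0.33 ± 0.05, with peaks of the fitted term at 8.30 h and again 12 h later (adjusted p = 2.78e-05). The median intensity of that probe set was 19728.1 in CT0 to CT5 and 38019 in CT6 to CT11. It was 21417.1 in CT12 to CT17 and 22367.1 in CT18 to CT23, with no second high of like size. The 12 h amplitude of Angptl4 was 0.59 ± 0.08 with peaks at 8.27 h (adjusted p = 1.37e-05), and that of Plin2 0.23 ± 0.03 with peaks at 6.73 h (adjusted p = 2.13e-06). The 12 h amplitudes of Pdk4 (0.38, adjusted p = 0.178), Acot3 (0.45, adjusted p = 0.250), Acot1 (0.13) and Vnn1 (0.06) did not pass. An 8 h component was called in 1 of the 15, the bright Angptl4 probe set (amplitude 0.37 ± 0.08, adjusted p = 0.0245), against 1.35% of all probe sets.

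Without CT60 to CT65 the 12 h count fell to 3, the brightest probe sets of Ppara (adjusted p = 0.000623) and Angptl4 (0.000325) and that of Plin2 (0.0001), by the same limma test. In the first cycle alone it was 2. Without the pool of CT28 it was 5, with both Cpt1a probe sets lost (adjusted p = 0.0792 and 0.0536). The shares of all probe sets called in these smaller fits are not given here. The falls can therefore not be read as particular to these genes.

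The difference of the 2 amplitudes was tested next, among the 21774 probe sets with either component. The 24 h amplitude was the larger by the test in 10 of the 14 member probe sets tested, against 15.5% of all those tested. By the brightest probe set the difference was 1.35 ± 0.23 for Acot3 (adjusted p = 3.80e-07), 1.21 ± 0.19 for Pdk4 (1.07e-08), 0.39 ± 0.09 for Vnn1 (0.000189), 0.37 ± 0.10 for Cpt1a (0.00286) and 0.35 ± 0.09 for Acot1 (0.00311). Without a linear trend in the model the Cpt1a difference was 0.21 and did not pass (adjusted p = 0.184). In Angptl4 it was -0.01 ± 0.12 (adjusted p = 0.919), a nearly equal split, and its sign changed with the pools. Plin2, with 0.08 ± 0.04, did not pass (adjusted p = 0.0978).

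Ppara lay at the threshold. Its brightest probe set had a difference of 0.18 ± 0.07 (adjusted p = 0.0573), while its other probe sets passed with 0.40 (adjusted p = 6.95e-05) and 0.29 (0.0095). The brightest also passed with quantile normalization (adjusted p = 0.0261), without CT60 to CT65 (0.00123) and without any 1 of the 8 pools of CT25, CT28, CT29, CT30, CT47, CT48, CT60 and CT61 (0.0212 to 0.0496). In the second cycle alone, with 24 pools, the larger 24 h amplitude passed the test in 2 of the 15 probe sets. The share of all probe sets in that fit is not given here. A probe set that did not pass could still have the larger 24 h amplitude in value, as Acot3 did (1.27 against 0.60). The bright Angptl4 probe set went the other way (0.43 against 0.74).

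**Figure D3:**
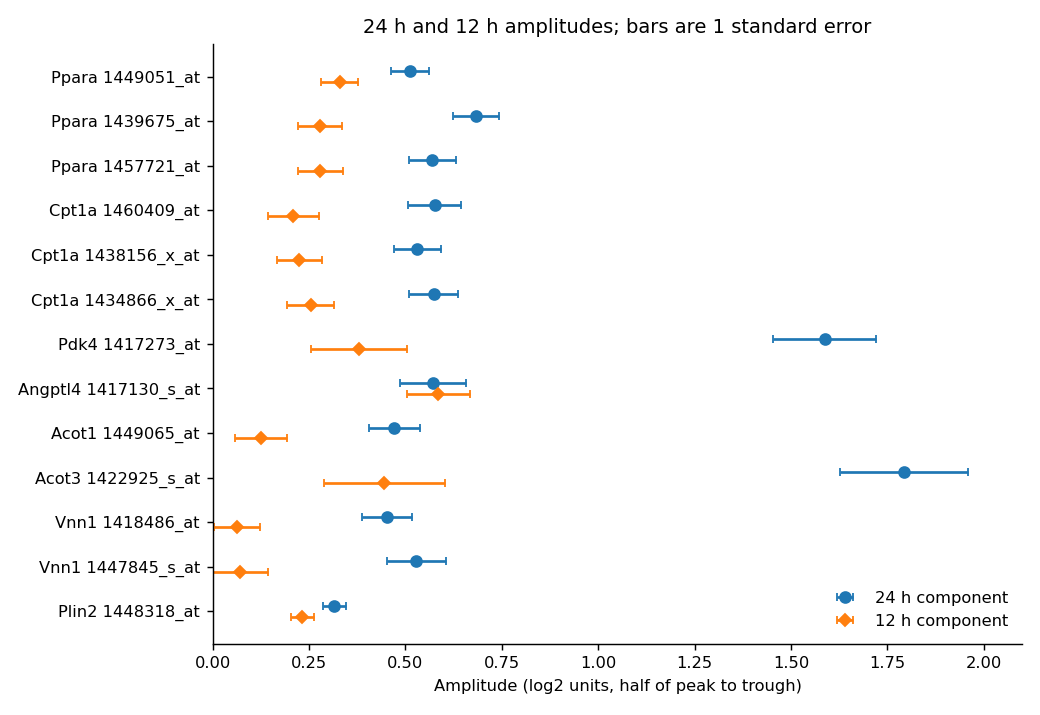
Amplitude on the log2 scale (x axis, from mean to peak) of the 24 h component (circles) and the 12 h component (diamonds) for the 13 probe sets of mean intensity of at least 100, with 1 standard error as bars. The 24 h amplitude is far larger in Acot3 and Pdk4, and the 2 components are about equal in Angptl4 (0.57 and 0.59).

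Between the cycles, a difference of the 24 h component was called in 2 of the 15 probe sets, the brightest of Ppara (adjusted p = 0.0217) and the brightest of Cpt1a (adjusted p = 0.00352), against 4.63% of all probe sets. Fitted alone, the first cycle put the peak of this Ppara probe set at CT10.2 ± 0.43 and the second at CT7.47 ± 0.52. For Cpt1a the peaks were CT10.9 ± 0.33 and CT7.05 ± 0.53. The 2 other probe sets of each gene did not pass (adjusted p = 0.622 and 0.346 for Ppara, 0.229 and 0.141 for Cpt1a). Acot3 had a 24 h amplitude of 2.26 and then 1.27 in these cycles and did not pass either (adjusted p = 0.0564). With 1 pool left out, the count was 1 without CT38 and 4 without CT60.

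The second cycle ended low for both genes. From CT61 to CT65 the brightest Cpt1a probe set read 10139.0 to 14570.2, and in the same hours of the first cycle, CT37 to CT41, it read 20965.4 to 35165.2. For Ppara the values were 14068.6 to 17482.3 and 21020.9 to 30408.8. In these probe sets no value of CT61 to CT65 reached the lowest of CT37 to CT41. These hours leave out CT60, where Cpt1a read 27296.3 and Ppara 21813.3, both above those lows. With CT60 included both probe sets would overlap. Within CT61 to CT65 the other Ppara probe sets and Cpt1a 1434866_x_at did not overlap either. Cpt1a 1438156_x_at did, with 17649.9 at CT64 against a low of 16294.3 at CT40. The share of all probe sets without overlap in these hours is not given here, so the values only describe these probe sets. Without CT60 to CT65, an alternative chosen after seeing the data, none of the 15 probe sets was called (limma, adjusted p = 0.802 or more), and 2 had an unadjusted p under 0.05, as did 5.75% of all probe sets. That fit held 18 pools in the second cycle and called 2 probe sets in all, against 2088 with every pool, so it does not place the difference in the late pools. Mice and arrays cannot be told apart in these hours.

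**Figure D4:**
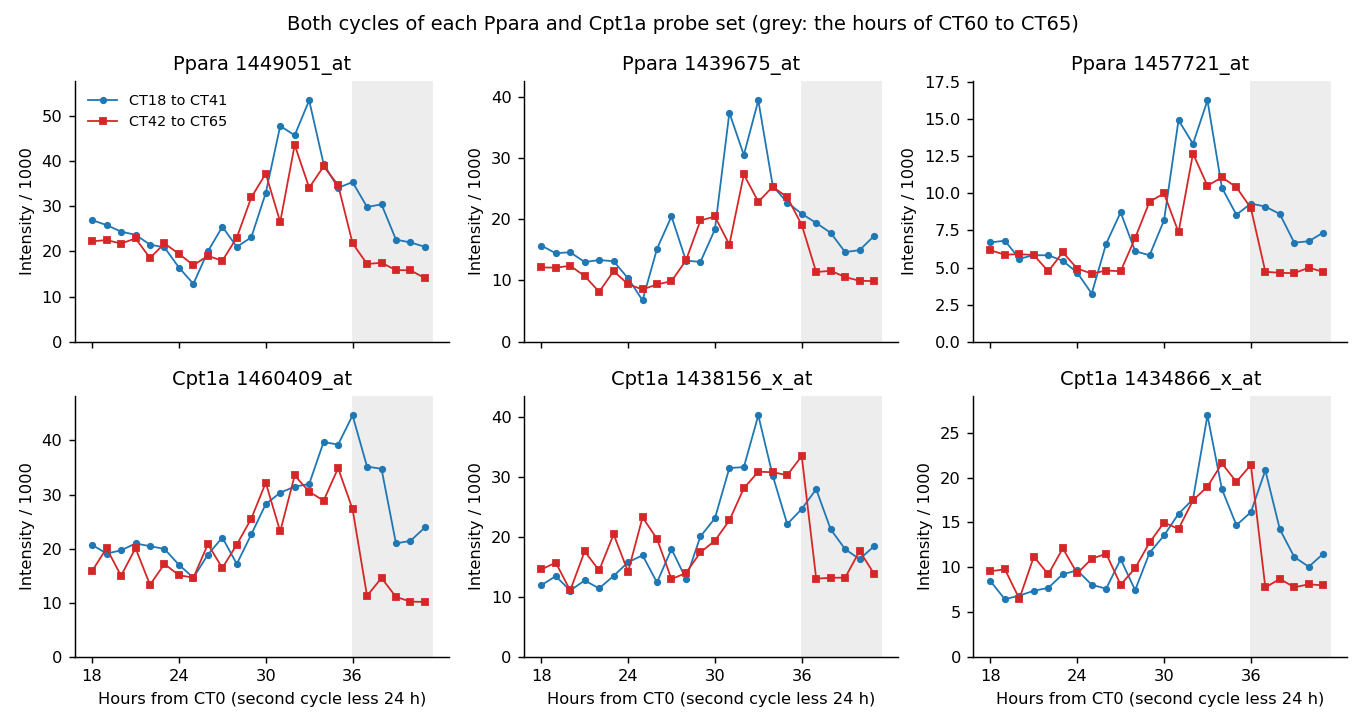
Intensity (divided by 1000, linear scale from 0) of the 3 Ppara and the 3 Cpt1a probe sets against hours from CT0, with the first cycle in blue and the second, less 24 h, in red, each point 1 pool, and the hours of CT60 to CT65 in grey. In the grey hours the second cycle runs below the first for Ppara 1449051_at and Cpt1a 1460409_at from CT61 on.

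Among 11185 genes with a mean of at least 100, the profiles most like that of Ppara over the 48 pools, after a linear trend was removed, were those of Gne (r = 0.91), Ppargc1b (0.90), Fnip2 (0.90), Slc38a3 (0.88) and 4931408D14Rik (0.88). These values are descriptions, and the profiles share their arrays. Cpt1a was at rank 9 (r = 0.86), Angptl4 at rank 271 (0.71), Vnn1 at rank 2472 (0.38), Acot3 at rank 2886 (0.33) and Plin2 at rank 3742 (0.22). Acot1 was at rank 8376 (r = -0.27) and Pdk4 at rank 11074 (-0.68), close to the end of the list.

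The wider pathway was described with 12 lists, 114 genes in all, of which 104 were measured and 95 are not among the 9 genes. Of these 95, 69 had a 24 h component, against 52.7% of all genes, 16 had a 12 h component, against 7.13%, and 28 were of the 24 h class by both tests of the study, against 14.2%. The counts of the single lists below are to be read against the same 52.7%, and several of the short lists lie near it. The median 24 h amplitude of the 95 was 0.17, against 0.06 over all genes. These shares and amplitudes were not matched for intensity. A mean under 100, where a rhythm is understated, was found in 49.5% of all probe sets and in at most 3 genes of any list. Of the 69 called, 30 peaked within 3 h of Ppara, and of all called genes 1873 of 9597 did (19.5%).

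Of the receptor's partners and cofactors, 8 of 9 were called. Ppargc1b, the coactivator PGC-1β, had an amplitude of 1.01 and a peak at CT7.99, Rxra, the dimer partner, 0.39 at CT7.98, and Ep300 0.30 at CT7.24. These peaks preceded that of Ppara by 1.32 h (adjusted p = 1.9e-06), 1.33 h (0.0128) and 2.07 h (0.00389). Rxra and Ep300 were not of the 24 h class by both tests of the study. In the first cycle alone neither had a called 24 h component (F-test, adjusted p = 0.0848 and 0.289). In the second cycle alone they peaked at CT6.92 and CT4.93, with Ppara at CT7.47. These leads are not given without CT60 to CT65, which held the lowest values of Ppargc1b, Rxra and Ep300. Rxrb followed a smaller curve (0.11, CT5.92).

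In mitochondrial β-oxidation 11 of 16 were called, with small amplitudes: Slc22a5, the carnitine transporter, 0.40 at CT11.3, Slc25a20, which carries acylcarnitines, 0.15 at CT9.86, Acadm 0.07 at CT9.06 and Etfdh 0.13 at CT3.87. Of fatty acid uptake and activation, 5 of 9 were called, and the acyl-CoA synthetase genes Acsl4 and Acsl3 peaked at CT18.6 and CT18.5, Acsl5 at CT0.685 and the transporter Slc27a2 at CT8.78. Both measured genes of ketone body metabolism were called, Bdh1 (0.28, CT8.76) and Acat1 (0.07, CT6.80). The Bdh1 peak did not differ from that of Ppara by the test (adjusted p = 0.131).

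Of peroxisomal oxidation, 8 of 11 were called, with Crot, a carnitine acyltransferase, at 0.60 and CT3.24, Eci2 at 0.43 and CT11.8, Pex11a at 0.38 and CT13.7, and the transporter Abcd2 at 0.99 and CT10.1. Of ω-oxidation, 5 of 7 were called: Cyp4f15 (CT6.68), Aldh3a2 (CT13.1), Cyp4a12a (CT22.0) and Cyp4f14 (CT0.161) were spread over the day.

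Among the other acyl-CoA thioesterases 6 of 10 were called. Acot4 (0.79, CT14.9), Acot13 (0.17, CT15.2) and Acot11 (0.24, CT13.5) peaked between Acot3 and Acot1, or shortly before Acot3 in the case of Acot11, and Acot12 (0.29) at CT10.8. Of lipid droplet and lipolysis genes 11 of 14 were called. Plin5, another droplet coat protein, peaked at CT18.4 (0.37), far from Plin2, the lipase Pnpla2 at CT9.20 (0.56), Mgll at CT13.7 (0.36) and Fitm2 at CT12.0 (0.30).

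Beside Pdk4, 2 of 3 pyruvate dehydrogenase kinases were called, Pdk1 at CT16.1 (0.26) and Pdk2 at CT8.28 (0.30), neither close to the CT23.0 of Pdk4. The target of Angptl4, Lpl, peaked at CT2.99 with 0.70, and Angptl8, another inhibitor, at CT16.0 with 0.87; they made up 2 called of 4. All 5 of the FGF21 receptor list were called, Fgfr2 at CT5.06 (0.43), its co-receptor Klb at CT7.18 (0.35), Fgfr4 at CT4.58 (0.62) and the dim Fgfr1 (0.02). Beside Vnn1, 4 of 5 other vanin and pantothenate kinase genes were called, and Pank1 peaked at CT10.4 (0.21), Pank3 at CT11.7 (0.23), Pank4 at CT8.08 (0.13) and Pank2 at CT7.81 (0.10).

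**Figure D5:**
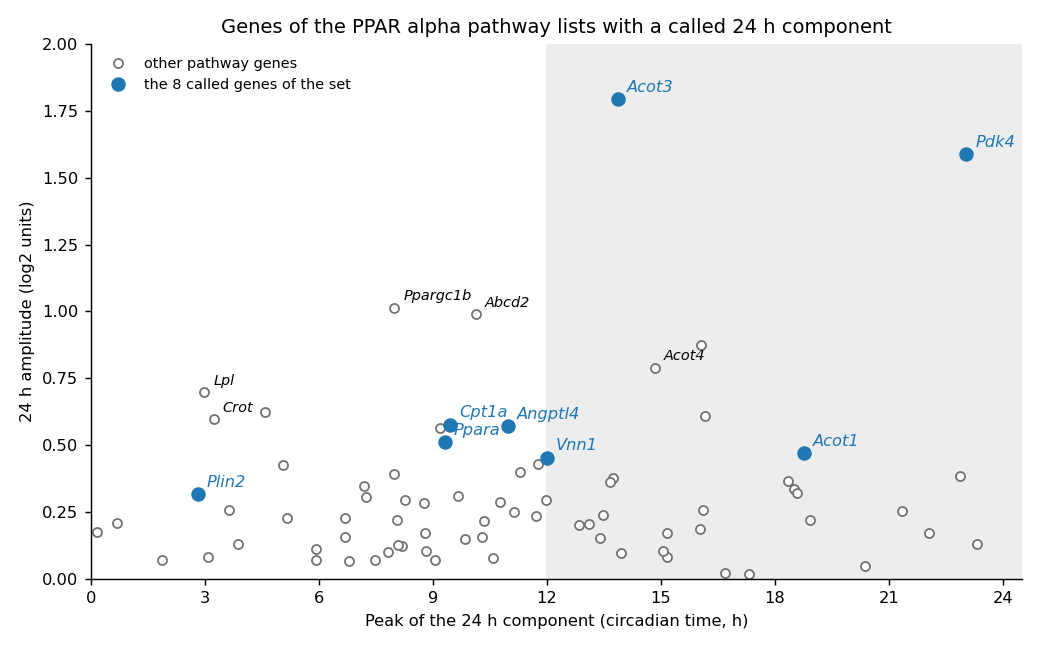
Fitted 24 h peak (x axis, circadian time in hours) against 24 h amplitude (y axis, log2 units) for the called genes of the 12 pathway lists, filled for the 8 called genes of the set and open for the other 69, with subjective night in grey. Acot3 and Pdk4 lie above every other gene at 1.79 and 1.59, and Ppara and Cpt1a lie together near CT9.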

How the data were processed

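Liver RNA of 48 hourly pools was read on Affymetrix arrays. The deposited table holds intensity values, not log-transformed. They are taken here as GCRMA values, which are background-corrected and normalized between arrays, because the authors' methods name GCRMA (version not given in the sources used here); the labels name MAS5, which the methods give for present and absent calls, and which of them made the deposited values was not tested. A probe set near the background understates a rhythm, and the number of arrays, 1 an hour, limits the precision.

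Intensities were log2 transformed. The main model in limma 3.58.1 (R 4.3.3) had a linear trend and cosine and sine pairs at 24, 12 and 8 h for all 45101 probe sets, with moderated variances and Benjamini-Hochberg adjustment at 0.05. Amplitude and peak time differences took delta-method errors and normal tests, with 95% intervals. Cycles were compared by an interaction with the 24 h pair. The G-test used 23 Fourier frequencies and the cosine fit, after COSOPT, 1000 scramblings over period lengths from 4 to 30 h (step 0.1 h), both with Storey q-values. Genes were named from probe sets with 1 symbol (34958; 932 had several, among them 1 shared by Acot1 and Acot2 that was not used, and 9211 none). Pathway genes were read through their brightest probe set, and of each list the called genes with the 4 smallest p-values are named. The members and lists were chosen with earlier results of these data known. Alternatives covered trend, harmonics, scale, normalization, dim probe sets, variance, autocorrelated errors, single cycles, CT60 to CT65 and each pool left out. The code was tested on simulated data. Promoters are from RefSeq (GRCm38.p6). Python 3.11.15 with numpy 2.4.6, pandas 2.3.3 and matplotlib 3.10.9 was also used.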

Additional observations from a re-analysis of the deposited data

Results flagged for a closer look

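The 24 h component of the brightest Ppara probe set (1449051_at) differed between the cycles by the interaction test (limma, adjusted p = 0.0217), with 24 h amplitudes of 0.53 and then 0.43 in the separate cycles. The same test was passed by the brightest Cpt1a probe set (1460409_at, adjusted p = 0.00352), with amplitudes of 0.54 and 0.55; the peak times are given above. Without CT60 to CT65 both had an adjusted p of 0.802, and without CT28 they stayed at 0.0424 and 0.00944.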

How the results depend on the processing

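Of 220 values recomputed under alternatives other than single pools left out, 190 kept their direction and their side of the threshold or, for counts of calls, stayed within 1.5 times, and 30 did not; of 1008 values with 1 pool left out 989 did. A count within that range can still lose single calls. The 24 h calls of the member probe sets were 14 without any 1 pool, the 12 h calls 5 to 8, the larger 24 h amplitudes 10 to 12 and the peak differences from Ppara 8 to 9. The cycle difference was called in 1 probe set with linear intensities, in 4 with a mean intensity of at least 100 or with autocorrelated errors, in 0 without CT60 to CT65 (chosen after seeing the data), and in 1 (without CT38) to 4 (without CT60) when 1 pool was left out. The 12 h calls were 3 without CT60 to CT65 and 2 in the first cycle alone, and the peak differences 5 in the first cycle alone. The larger 24 h amplitude passed the test in 2 probe sets in the second cycle alone, where each cycle holds 24 pools. The shares of all probe sets in these smaller fits are not given here. The difference of the Angptl4 amplitudes turned to 0.0825 without CT60 to CT65 and to 0.0983 in the first cycle alone, and ran from -0.0641 to 0.0560 with 1 pool left out. The Cpt1a peak turned to 0.42 h before that of Ppara (-0.42) in the second cycle alone, and lay between -0.0208 and 0.252 h with 1 pool left out. The second Ppara probe set peaked 0.164 h before the brightest (-0.164) in the first cycle alone. The Acot1 peak in the second cycle alone is written as -11.2 h because its delay passed 12 h. The causes were not tested. Residuals of neighbouring hours correlated at -0.07 at the median of all probe sets and at 0.24 for Ppara and 0.34 for Cpt1a, for which independent errors may be too small.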

Other observations

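Some single hours stood far from their neighbours. At CT34 Acot3 (10296.8), Acot1 (7724.0) and Vnn1 (41631.5) each stood above both neighbouring hours, while Ppara fell from 53446.2 at CT33 to 39349.0 and the Cpt1a probe sets disagreed, 1 of 3 rising. At CT55 the brightest Ppara probe set read 26514.8, below both neighbouring hours, and Pdk4 read 1819.4, above 705.8 before and 373.0 after. In the next hours Acot3 went from 4975.0 at CT56 to 1026.5 at CT57 and 7499.7 at CT58. Whether such steps belong to the mice of a pool or to its array cannot be told apart with 1 array an hour. In the 3 pools in which Fgf21 passed 60, Angptl4 read 15133.5 at the lowest and 18811.9, its highest, at CT21. Angptl4 was also above 15133.5 in other pools, as at CT31 (17285.5) and CT56 (17623.9), where Fgf21 read 47.2 and 47.6. The r of the 2 genes over the 48 pools was 0.30, with Fgf21 near the background.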
